A study of Mus musculus with 57 samples.

Results

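T cells and natural killer (NK) cells were followed in mouse liver through 10 genes: the T cell receptor constant chains Trac, Trbc2 and Trdc, the CD3 signalling subunits Cd3e and Cd3g, the coreceptors Cd4 and Cd8a, and the cytotoxic or NK cell genes Nkg7, Gzmb and Klrb1c. All 10 were found by the mouse symbol of their Ensembl identifier among the 54307 genes of the table. Trdc was chosen by its high counts after CCl4 in these same libraries, and the other 9 were taken to ask whether further T cell genes followed it. Every CCl4 value, fold change and share below is therefore a description, from which nothing is read.

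The 57 livers came from male wild-type C57BL/6JJcl mice, 6 weeks old with 1 further week of acclimatisation, fasted for 12 h and killed 24 h after a single compound or vehicle. By gavage, 4 mice received alpha-naphthyl isothiocyanate (ANIT, a bile duct toxicant) and 6 received the pain reliever acetaminophen (APAP). Also by gavage, 7 were given the bile duct toxicant 4,4'-methylene dianiline (MDA), 5 were given thioacetamide (TAA), and 13 control mice had 0.5% methylcellulose. By intraperitoneal (i.p.) injection, 7 received CCl4 (carbon tetrachloride), 4 galactosamine (GAL) and 2 control mice 0.9% saline. Into a vein (i.v.), 7 received concanavalin A (ConA, a plant lectin that activates T cells) and 2 control mice 0.9% saline. Per the labels' protocols a compound could also be given in corn oil, which no control mouse received, and compound doses are not given in the sources used here. All livers were perfused, and the lobe sampled was the left lateral one, at its outer side.

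A T cell recognises its target through a receptor of paired chains, alpha with beta or gamma with delta, whose constant parts are encoded by genes such as Trac, Trbc2 and Trdc. The chains reach the cell surface only together with the CD3 subunits, and Cd4 or Cd8a adds the coreceptor that separates helper from cytotoxic T cells. NK cells lack this receptor but share the killing machinery of cytotoxic T cells, to which granzyme B (Gzmb) and the granule protein Nkg7 belong. The liver holds many NK cells, innate-like T cells and gamma-delta T cells, while Cd4 is also expressed by some macrophages and dendritic cells.

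The constant regions of Trdc and Trac are shown because the values that set the delta chain apart from the alpha chain rest on them. Each is the first 150 coding bases of the constant region, 5′ to 3′, from the GENCODE M21 transcripts.
Trdc: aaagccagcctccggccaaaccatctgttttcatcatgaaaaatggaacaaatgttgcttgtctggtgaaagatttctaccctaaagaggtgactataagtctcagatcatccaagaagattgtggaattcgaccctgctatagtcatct
Trac: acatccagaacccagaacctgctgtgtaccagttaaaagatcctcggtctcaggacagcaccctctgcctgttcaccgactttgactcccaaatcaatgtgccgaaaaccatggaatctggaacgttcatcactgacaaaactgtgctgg
Cut into overlapping 31-base words, 48.5% of the Trbc2 transcript occurred on the same strand in another gene, in each case Trbc1, the second beta constant gene, so the split between the 2 beta genes is uncertain. Of the Trdc words 1.17% occurred elsewhere on the same strand and 6.51% on the opposite strand. Trac and Nkg7 shared none. The share was 21.2% for Klrb1c, which belongs to a family with the near copies Klrb1a and Klrb1b, and 1.35% for Gzmb, shared with Gzmc.

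Totals were 13826343 to 35075809 estimated counts per library (median 21532116). Values are given in CPM, estimated counts scaled to a common library size by TMM over all libraries. The deposited values looked divided by transcript length: the 5th percentile of the values above 0 was 1.99 in single-transcript genes of 500 to 800 nt and 0.237 in those of 3000 to 5000 nt. CPM can thus be compared between genes as a per-length level. An estimated count on this scale is not 1 read: the smallest value above 0 was 0.226 for Cd8a, 0.262 for Trdc, 1.73 for Trac and 2.64 for Trbc2, and the number of reads behind a value is unknown. The filter on low counts and the tests work on the same scale. In whole liver RNA, fewer cells of a type and less RNA per cell cannot be told apart.

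**Figure D1:**
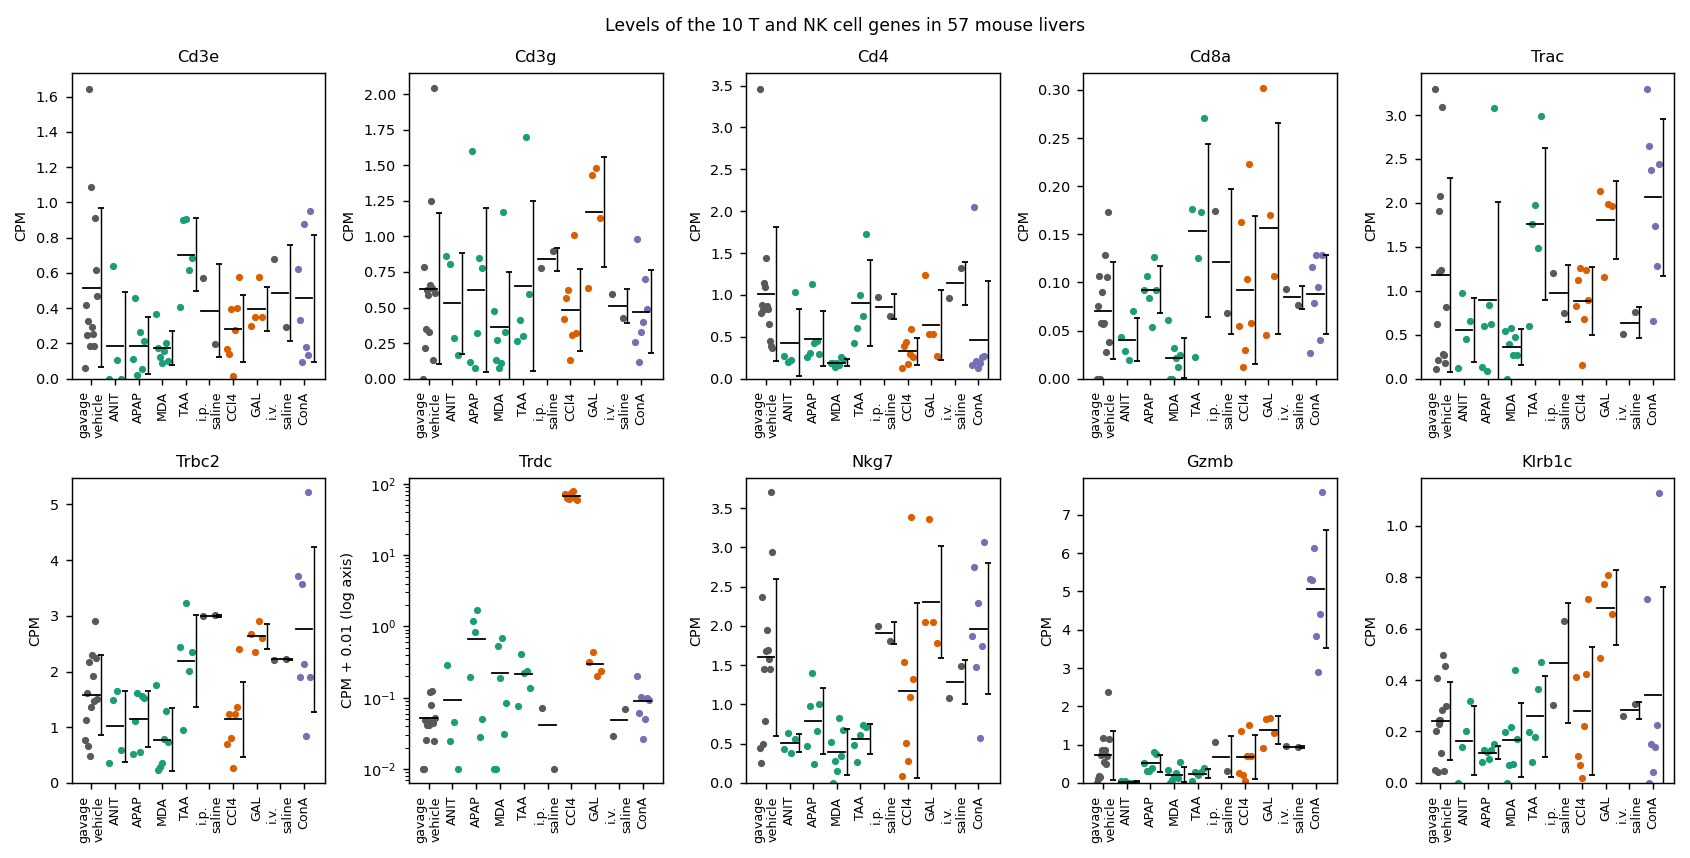
Level of each of the 10 genes in every mouse (points), by group, in CPM (vertical axis, linear; Trdc on a log axis as CPM + 0.01). Horizontal lines are group means and bars 1 SD, which the Trdc panel leaves out. Trdc stands at 59.5 to 78.2 CPM in the 7 CCl4 mice and at 1.69 or less in all others, and Gzmb is highest in the 7 ConA mice.

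In the 17 vehicle mice the beta chain was the most abundant member per length and the delta chain the least. Trbc2 stood at 1.82 ± 0.788 CPM (SD, n = 17), Trac at 1.09 ± 0.979 and Cd4 at 1.01 ± 0.698, and Nkg7, between Trbc2 and Trac by its mean, had a median of 1.58 and an SD of 0.883. Gzmb followed at 0.741 ± 0.568, Cd3g at 0.642 ± 0.470, Cd3e at 0.497 ± 0.404, Klrb1c at 0.272 ± 0.161, Cd8a at 0.0783 ± 0.0504 and Trdc at 0.0403 ± 0.0346. Neighbours in this order differed by less than the larger of their SDs, except Klrb1c and Cd8a. No member was called between vehicle routes by edgeR's quasi-likelihood test (0 of 7 tested, i.p. or i.v. saline against gavage; over all genes 0.0131% and 0.0263% were called), none had an unadjusted p under 0.05, and DESeq2 called 0 as well.

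Trdc, the constant region of the delta chain, was at 59.5 CPM in the lowest, 64.0 in the median and 78.2 in the highest of the 7 CCl4 mice. The 2 i.p. saline mice had 0 and 0.0620 CPM, and the 13 gavage controls ranged from 0 to 0.116 with a median of 0.0340. All 7 CCl4 mice lay above both saline mice, as they did for 22.5% of all genes. They also lay above every other mouse of the study, for which the share over all genes was not counted. These values chose the gene. The CCl4 mean was 67.4 ± 7.15 CPM (SD, n = 7), at least 430-fold higher than a floor of 3 estimated counts per library in the saline mice, on the deposited scale. The spread between the CCl4 mice was narrow for Trdc and wide for the other members, whose SD was 0.190 on a mean of 0.283 for Cd3e and 1.12 on 1.18 for Nkg7.

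The other T cell receptor genes lay at or below saline levels in most CCl4 livers. Trac, the alpha constant chain, ranged from 0.161 to 1.26 CPM with a median of 0.890, against 0.743 and 1.202 in the i.p. saline mice, so the groups overlapped. Trbc2 ranged from 0.267 to 2.40 with a median of 1.23, against 2.99 and 3.02, and all 7 CCl4 mice lay below both saline mice, as they did for Cd4 (18.4% of all genes). Of the 7 mice, 1 lay below every one of the 17 vehicle mice in Trbc2 and 4 did in Cd4, and the Trbc2 log2 fold change was -1.39 against i.p. saline and -0.70 against all 17. Cd3e, the signalling subunit epsilon, ranged from 0.0172 to 0.577 with a median of 0.279, against 0.572 and 0.199. Cd3g, the gamma subunit of CD3, ranged from 0.132 to 1.01 with a median of 0.420, against 0.780 and 0.898. Trdc divided by the sum of Cd3e, Cd3g, Trac and Trbc2 was 14.2 to 128 in the CCl4 mice (median 20.9), 0 to 0.0450 in the gavage controls, and at most 0.858 in any other treated mouse. The mouse with the highest ratio, CCl4 mouse 8, had a sum of 0.576 CPM for the 4 genes and 73.8 CPM of Trdc.

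**Figure D2:**
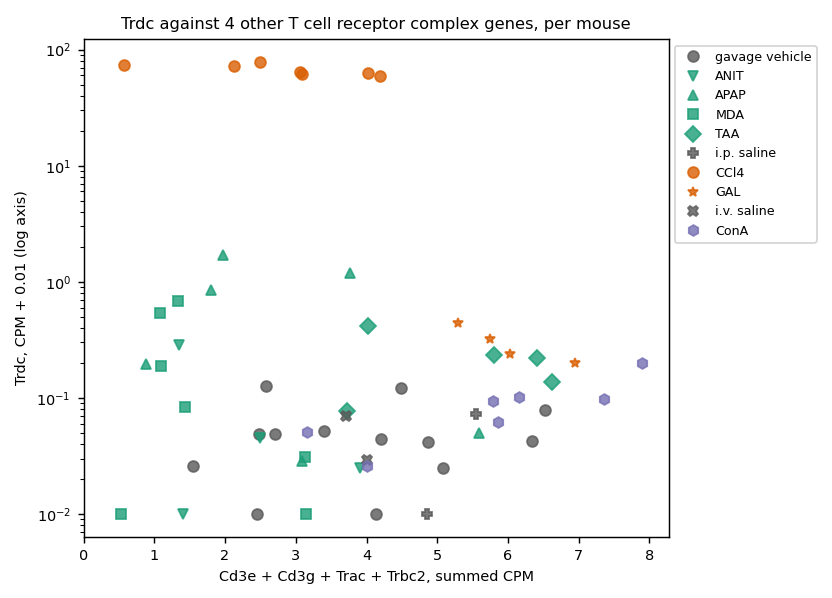
Trdc (vertical axis, CPM + 0.01, log scale) against the summed CPM of Cd3e, Cd3g, Trac and Trbc2 (horizontal axis), 1 point per mouse, marked by group. The 7 CCl4 mice form a row at 59.5 to 78.2 CPM of Trdc while their summed level, 0.576 to 4.19 CPM, lies within or below the 1.55 to 6.52 CPM of the gavage controls.

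Fitted against i.p. saline, the contrast in which 33.5% of all genes were called and by which Trdc was chosen, 9 members passed the filter on low counts. The log2 fold change was 10.53 for Trdc and below 0 for the other 8, from -1.39 to -0.06 with a median of -0.69, beside 0.10 over all genes. Scaling by library totals moved the median of all genes to 0.53 and left Trac at 0.25 and Gzmb at 0.33, both still below that median. Cd4 ranged from 0.126 to 0.587 CPM with a median of 0.300, below the 0.969 and 0.752 of both saline mice. Against all 17 vehicle mice 53.4% of all genes were called, and the log2 fold change was 10.30 for Trdc.

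Within the delta locus the counts of the CCl4 livers sat on the constant region and 1 variable segment. Of 11 delta locus genes in the table, 2 were above 0 in any CCl4 mouse, Trdc and Trdv4, a delta variable segment. Trdv4 was at 0.677 to 2.04 CPM in the 7 CCl4 mice (mean 1.39 ± 0.556), at 0 in the 4 saline mice of either route, and above 0 in 1 of 13 gavage controls at 0.420 CPM. The gamma constant genes, partners of the delta chain, were at 0.201 ± 0.271 CPM for Tcrg-C1 and 0.167 ± 0.0799 for Tcrg-C2 after CCl4. The gavage controls had 0.231 ± 0.237 and 0.324 ± 0.277, and the groups overlapped for both genes. All 15 gamma locus genes summed to a median of 0.719 CPM after CCl4, 0.493 in i.p. saline and 0.741 in the gavage controls. Of a list of 15 gamma-delta and type 17 T cell genes, Trdv4 among them, 6 passed the filter in this contrast with a median log2 fold change of -0.11. The transcription factors Zbtb16 and Maf of this list stood at 3.43 ± 1.96 and 3.06 ± 0.475 CPM after CCl4, against 15.6 ± 2.00 and 5.78 ± 1.37 in i.p. saline.

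Outside CCl4, Trdc was low, and how many mice lay above their route controls differed between the compounds. After APAP the 6 mice had 0.0184 CPM in the lowest, 0.512 in the median and 1.69 in the highest, and 4 of them lay above every gavage control. After TAA the 5 mice had 0.0668, 0.406, 0.210, 0.226 and 0.126 CPM, and 4 lay above every control. After MDA, 3 of 7 did, with a range of 0 to 0.673 CPM and a median of 0.0738. In these 3 comparisons the filter on low counts left Trdc out of the main test. Without the filter, edgeR's quasi-likelihood test gave log2 fold changes of 3.69 ± 0.72 for APAP (adjusted p = 0.00109), 2.05 ± 0.63 for TAA (adjusted p = 0.0169) and 2.15 ± 0.74 for MDA (adjusted p = 0.0459). DESeq2 called Trdc in the same 3 comparisons (adjusted p = 0.000128, 0.0149 and 0.0405). The 4 GAL mice had 0.308, 0.432, 0.191 and 0.229 CPM, all above both saline mice (28.6% of all genes), with a log2 fold change of 2.71 ± 0.99 that did not pass (edgeR adjusted p = 0.0846). Their mean was 1.85-fold the floor of 3 estimated counts in these saline mice. After ANIT 1 of 4 mice lay above every gavage control, at 0.277 CPM (0.79 ± 0.95 without the filter, edgeR adjusted p = 0.603). After ConA 4 of 7 lay above both i.v. saline mice (0.70 ± 1.25 without the filter, edgeR adjusted p = 0.707), but all 7 were at or under 3 estimated counts. In order of their means the groups ran CCl4, APAP at 0.659 CPM, GAL at 0.290, MDA at 0.210, TAA at 0.207, ANIT at 0.0818 and ConA at 0.0800, and below CCl4 each neighbouring pair overlapped.

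After MDA Cd4, Nkg7 and Gzmb were called lower, and Cd4 had the largest change of the 3. The Gzmb call did not hold with the range of mouse numbers as a term, as given below. The 7 MDA mice had Cd4 at 0.138 CPM in the lowest, 0.185 in the median and 0.253 in the highest, while the 13 gavage controls ranged from 0.362 to 3.46 with a median of 0.832. All 7 MDA mice lay below every one of the 17 vehicle mice (2.41% of all genes). The log2 fold change was -2.34 ± 0.41 (edgeR adjusted p = 0.00017). Of the 6 members tested, 3 were called, all lower (33.8% of all genes were called, 16.4% lower), and 1 had every treated mouse below every control (3.01% over all genes). Trac ranged from 0 to 0.578 CPM with a median of 0.400, against 0.111 to 3.30 with a median of 0.815 in the controls (log2 fold change -1.64 ± 0.63, edgeR adjusted p = 0.0503). Trbc2 ranged from 0.231 to 1.76 with a median of 0.735, against 0.490 to 2.90 with a median of 1.51 (log2 fold change -0.995 ± 0.39, edgeR adjusted p = 0.0530). Without MDA mouse 1 or MDA mouse 8, Trbc2 was called (-1.30, adjusted p = 0.0141, and -1.18, adjusted p = 0.0384, in edgeR). Against all 17 vehicle mice 6 of 7 members were called lower (34.2% of all genes were called, 17.1% lower), Cd3e (-1.51 ± 0.47), Trac (-1.53 ± 0.58) and Trbc2 (-1.20 ± 0.37) included. Among further T lineage genes, Trbc1 fell by 1.92 and Zap70, the kinase that binds the CD3 chains, fell by 0.77 on the log2 scale. With mice numbered above 4 only, Cd4 stood at -1.88 (edgeR adjusted p = 0.0197), and with mice numbered 1 to 4 only at -3.03 (edgeR adjusted p = 0.0149).

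After ANIT, APAP and ConA the call of Cd4 turned on single mice. After ANIT the 4 mice had Cd4 at 0.272, 0.202, 0.218 and 1.03 CPM, 3 of them below every gavage control (log2 fold change -1.17 ± 0.56, edgeR adjusted p = 0.131). Without ANIT mouse 4, the highest, Cd4 was called (-2.01, edgeR adjusted p = 0.0293), and without ANIT mouse 2, which had 0.637 CPM of Cd3e against 0 to 0.107 in the others, Cd3e was called (-3.48, edgeR adjusted p = 0.0304). After APAP the 6 mice ranged from 0.259 to 1.14 with a median of 0.363, and 3 lay below every control (-1.03 ± 0.45, edgeR adjusted p = 0.0855). Without APAP mouse 4 Cd4 was called (-1.48, edgeR adjusted p = 0.0205), and without APAP mouse 2 Cd3e was (-1.94, edgeR adjusted p = 0.0394). Against all 17 vehicle mice APAP Cd4 was called (-1.04 ± 0.40, edgeR adjusted p = 0.0494, beside 33.4% of all genes). After ConA 6 of 7 mice had 0.127 to 0.275 CPM, below both i.v. saline mice at 0.957 and 1.32, and mouse 3 had 2.05. That comparison did not pass (-1.33 ± 1.00, edgeR adjusted p = 0.332), and without mouse 3 Cd4 was called (-2.56 ± 0.57, edgeR adjusted p = 0.00879). Cd4 did not pass after TAA (-0.11 ± 0.44, edgeR adjusted p = 0.849) or GAL (-0.51 ± 0.62, edgeR adjusted p = 0.569). Cd8a, the coreceptor of cytotoxic T cells, had group means of 0.0215 to 0.156 CPM and passed the filter in 0 of 7 comparisons. Without the filter its log2 fold change was -1.28 ± 0.68 after MDA (edgeR adjusted p = 0.188) and 1.05 ± 0.59 after TAA (edgeR adjusted p = 0.176), and neither passed.

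After ConA the alpha chain had the largest fold change among the receptor genes tested. Trac was at 0.657 to 3.30 CPM with a median of 2.37 in the 7 ConA mice, against 0.512 and 0.763 in i.v. saline, and 6 mice lay above both. It did not pass (log2 fold change 1.67 ± 0.61, edgeR adjusted p = 0.0566), passed in DESeq2 (adjusted p = 0.0311) and, without ConA mouse 5, in edgeR (adjusted p = 0.0212). It did not pass with library totals (1.05 ± 0.62, edgeR adjusted p = 0.214) or against all 17 vehicle mice (0.99 ± 0.48, edgeR adjusted p = 0.0680), where 0 of 7 ConA mice lay above every control. Trbc2 was at 0.838 to 5.23 CPM with a median of 2.14, against 2.21 and 2.22 (0.33 ± 0.59). After TAA, where 4 of 5 mice had Trdc above every control, the groups overlapped for the alpha, beta and CD3 genes, with log2 fold changes of 0.63 ± 0.61 for Trac, 0.51 ± 0.34 for Trbc2, 0.49 ± 0.49 for Cd3e and 0.07 ± 0.61 for Cd3g.

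Granzyme B was the member that rose after ConA. The 7 ConA mice had Gzmb at 2.89 CPM in the lowest, 5.28 in the median and 7.59 in the highest, and the 2 i.v. saline mice had 0.970 and 0.933. All 7 lay above every one of the 17 vehicle mice, whose highest value was 2.38 (12.4% of all genes). The log2 fold change was 2.41 ± 0.43 against i.v. saline (edgeR adjusted p = 0.00216) and 2.80 ± 0.39 against all 17 vehicle mice (edgeR adjusted p = 7.36e-07, beside 68.0% of all genes called). It was the 1 member called of 6 tested (34.2% of all genes were called), and 1 of these 6 lay wholly above its controls (19.5% over all genes). In a fit of all 57 samples with a shared spread the adjusted p was 0.0514, and with library totals the log2 fold change was 1.83 (edgeR adjusted p = 0.0253). Mitochondrial genes took 14.6% to 39.3% of the estimated counts in the ConA mice, against 6.79% and 25.4% in the i.v. saline mice and 5.11% to 25.4% in all 17 vehicle mice. The TMM factors were 0.471 to 0.954 after ConA and 0.636 to 1.12 in vehicle mice. Their part in the result was not tested. Nkg7 did not follow, at 0.567 to 3.08 CPM with a median of 1.87 against 1.09 and 1.49 (0.63 ± 0.54, edgeR adjusted p = 0.398). Klrb1c, the NK1.1 antigen, ranged from 0 to 1.13 CPM with a median of 0.152, against 0.260 and 0.307. The filter left Klrb1c out of the main test, and without the filter it did not pass (0.30 ± 1.17, edgeR adjusted p = 0.870). Ifng, the main NK and T cell interferon, was at 2.11 ± 0.86 CPM after ConA and at 0 in both saline mice, and Ccl5, a chemokine of activated cytotoxic cells, rose by 4.95 on the log2 scale.

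The promoter of Gzmb is shown because Gzmb was the member called after the T cell activator. It covers the 250 bases before the RefSeq start, on the minus strand at chr14:56262335-56262584 (GRCm38.p6), 5′ to 3′, with matches to the searched motifs in capitals. The Nkg7 promoter (plus strand, chr7:43436888-43437137) is shown beside it for a granule gene that did not pass after ConA.
Gzmb: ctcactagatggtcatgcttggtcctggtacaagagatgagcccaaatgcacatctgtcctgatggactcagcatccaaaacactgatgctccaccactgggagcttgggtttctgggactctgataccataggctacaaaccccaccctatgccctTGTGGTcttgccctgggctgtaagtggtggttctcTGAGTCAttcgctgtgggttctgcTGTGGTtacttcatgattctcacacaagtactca
Nkg7: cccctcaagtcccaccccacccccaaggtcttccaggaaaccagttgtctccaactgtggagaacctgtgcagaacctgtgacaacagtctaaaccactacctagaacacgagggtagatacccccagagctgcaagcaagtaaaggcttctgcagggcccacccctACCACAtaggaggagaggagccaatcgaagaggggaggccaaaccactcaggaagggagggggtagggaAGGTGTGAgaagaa
The motifs searched on both strands were AP-1 (TGANTCA), RUNX (TGTGGT), a T-box core (AGGTGTGA) and CRE (TGACGTCA). The Gzmb stretch held 1 AP-1 match, 58 bases before the start, and 2 RUNX matches, 93 and 34 bases before it. The Nkg7 stretch held 1 RUNX match at 83 and 1 T-box match at 14 bases. Of 32851 RefSeq promoters 6.75% held an AP-1, 14.05% a RUNX and 1.12% a T-box match in the same length. Promoters were found for 6 of the 10 members, and those of Cd3e, Cd3g and Cd8a held 0 matches and that of Klrb1c held 1, a RUNX match at 89 bases. A match describes letters and says nothing of binding.

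Nkg7 was called lower after ANIT, MDA and TAA, and Gzmb after ANIT and MDA. With the range of label numbers as a term, both ANIT calls and the Gzmb call after MDA were lost, as given below. Nkg7 was at 0.435, 0.637, 0.384 and 0.560 CPM in the 4 ANIT mice and ranged from 0.260 to 3.71 with a median of 1.58 in the 13 controls (log2 fold change -1.71 ± 0.57, edgeR adjusted p = 0.0327). Gzmb was at 0.0606, 0.0459, 0 and 0 in the ANIT mice and from 0 to 2.38 with a median of 0.707 in the controls (-4.37 ± 1.10, edgeR adjusted p = 0.00676). For both genes the groups overlapped. These were the 2 members called after ANIT, of 7 tested (28.2% of all genes were called, 14.2% lower). Leaving out any 1 of the 4 ANIT mice ended the Nkg7 call (edgeR adjusted p = 0.0613 to 0.105). After MDA Nkg7 ranged from 0 to 0.825 CPM with a median of 0.340 (-1.93 ± 0.52, edgeR adjusted p = 0.00641) and Gzmb from 0 to 0.556 with a median of 0.170 (-1.69 ± 0.63, edgeR adjusted p = 0.0421). Leaving out MDA mouse 1, 2, 3, 4, 7 or 8 ended the Gzmb call (edgeR adjusted p = 0.0510 to 0.0882). After TAA Nkg7 was at 0.481, 0.270, 0.616, 0.740 and 0.712 CPM (-1.46 ± 0.50, edgeR adjusted p = 0.0209), the 1 member called of 7 (50.5% of all genes were called, 24.0% lower). Without TAA mouse 3 its adjusted p was 0.0598. After APAP 0 of 7 members were called by edgeR (31.8% of all genes), 3 had an unadjusted p under 0.05 (Cd3e, Cd4 and Nkg7, all lower), and DESeq2 called 1, Trdc.

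**Figure D3:**
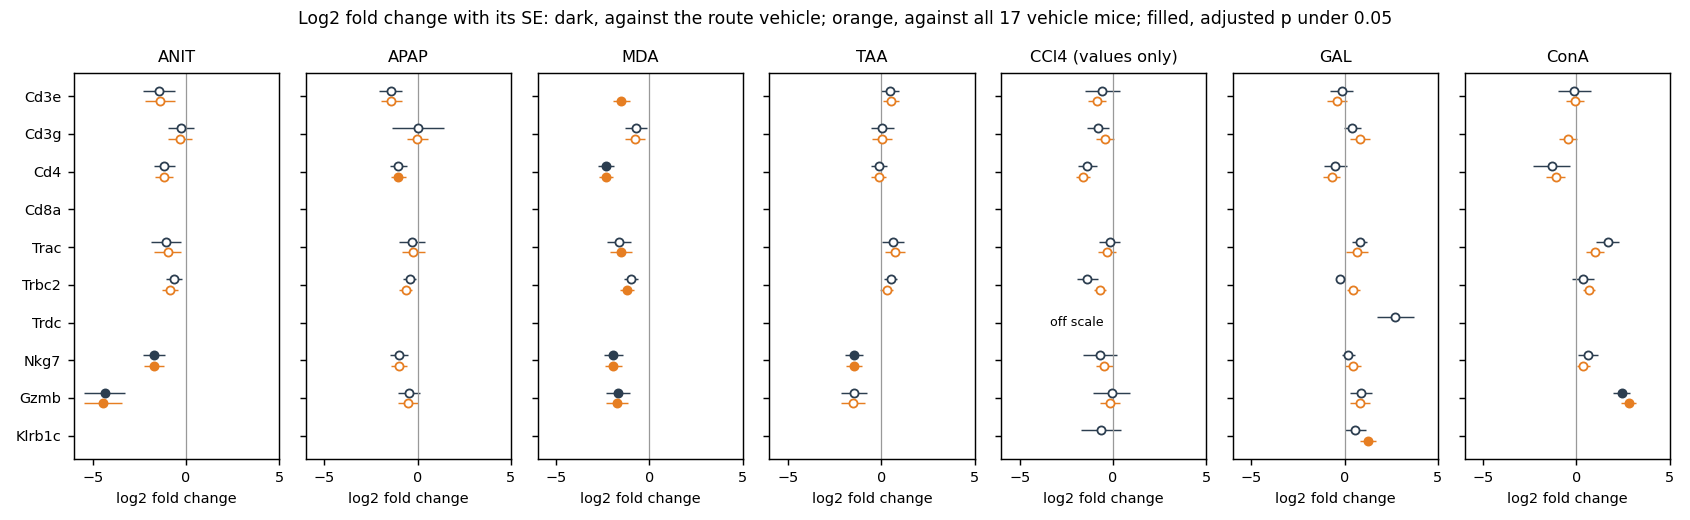
Log2 fold change with its SE (horizontal axis) of each member tested, by compound, against the route vehicle (dark) and all 17 vehicle mice (orange); filled points have an adjusted p under 0.05, and CCl4 is drawn without calls. After MDA the points lie at or left of -0.73, and after ConA Gzmb lies at 2.41 and 2.80.

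The 13 gavage controls themselves fell apart in Gzmb by the number in their label. The 4 mice numbered 1 to 4 had 0, 0.104, 0.178 and 0.148 CPM, and the 9 numbered above 4 ranged from 0.497 to 2.38 with a median of 0.855, with no overlap. Nkg7 was at 0.449, 0.260, 2.37 and 0.501 in the first and 0.784 to 3.71 (median 1.69) in the second. Other list sums split the same controls without overlap: Kupffer cell genes at 266 to 357 against 500.3 to 775 CPM, hepatocyte genes at 100371 to 142816 against 70710 to 98280, and T cell activation genes at 2.24 to 3.16 against 5.46 to 7.92. The labels do not say what the numbers mark, and the part of these differences in the results was not tested. All 4 ANIT mice carry numbers 1 to 4, and their Gzmb (0 to 0.0606 CPM) and Nkg7 (0.384 to 0.637 CPM) lie within the range of the controls with these numbers. With the number range as a term, Gzmb stood at -1.93 (edgeR adjusted p = 0.161) and Nkg7 at -0.85 (edgeR adjusted p = 0.347) after ANIT, and 0 members were called. After MDA the same term left Nkg7 at -1.70 (edgeR adjusted p = 0.0077) and Gzmb at -1.02 (edgeR adjusted p = 0.165). After TAA Nkg7 stood at -1.35 (edgeR adjusted p = 0.0177), and among mice numbered above 4 at -1.45 (edgeR adjusted p = 0.0103).

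**Figure D4:**
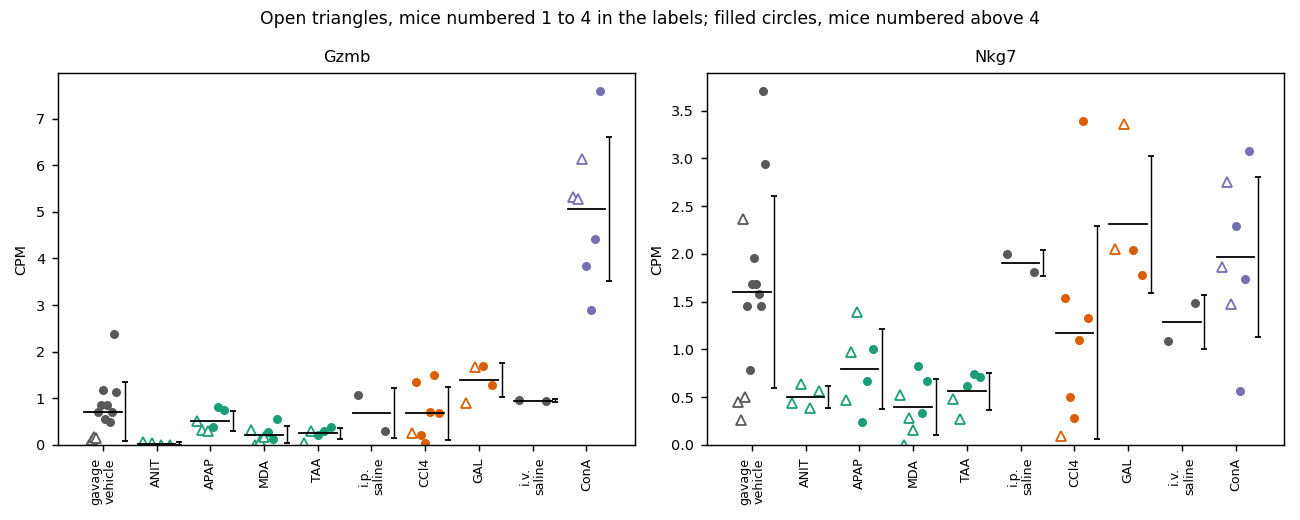
Gzmb and Nkg7 in CPM (vertical axes) in every mouse by group, with mice numbered 1 to 4 as open triangles and those numbered above 4 as filled circles; lines are means and bars 1 SD. The 4 gavage controls numbered 1 to 4 have at most 0.178 CPM of Gzmb and the other 9 at least 0.497.

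After GAL 0 of 9 members were called against i.p. saline by edgeR (28.5% of all genes were called), 1 had an unadjusted p under 0.05 (Trdc), and DESeq2 called 0. Gzmb was at 0.909, 1.66, 1.69 and 1.29 CPM against 1.07 and 0.310 (0.87 ± 0.59, edgeR adjusted p = 0.298). Klrb1c was at 0.484, 0.774, 0.807 and 0.657 against 0.302 and 0.630, and was called against all 17 vehicle mice (1.23 ± 0.44, edgeR adjusted p = 0.0216, beside 52.5% of all genes). Trbc2 was at 2.68, 2.36, 2.90 and 2.59, all below both saline mice (-0.25 ± 0.24, edgeR adjusted p = 0.450; 23.7% of all genes lay wholly below). Those 2 saline mice lay above every gavage control, and against all 17 vehicle mice the direction was the opposite (0.47 ± 0.34, edgeR adjusted p = 0.260, groups overlapping). Trac was at 2.13, 1.16, 1.99 and 1.96 against 1.202 and 0.743 (0.79 ± 0.41, edgeR adjusted p = 0.183). With library totals as scaling, which moved the median of all genes to 0.84, Trac (1.54) and Trdc (3.38) were called, and Trbc2, Cd3e and Cd4 changed sign while staying below that median.

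Further genes known from the same cells were read from lists, and which cells of these livers expressed them was not tested. Of 25 NK and cytotoxic genes, 4 of 6 tested fell after ANIT (14.2% of all genes were called lower), with Gzma (-2.13 ± 0.68) and Klrk1 (-1.76 ± 0.56), an activating NK receptor, among them, and the list median was -1.67 beside -0.01 over all genes. The 25 genes summed to 2.63 to 7.01 CPM in the 4 ANIT mice, all numbered 1 to 4, and to 5.45 to 9.54 in the controls with these numbers and 10.9 to 20.4 in the other controls. The median was -1.20 after MDA (3 of 5 lower, beside 16.4% of all genes), -1.14 after TAA (3 of 6 lower, beside 24.0%) and -1.09 after APAP, where Il2rb fell. Ccl5 was at 178 CPM in APAP mouse 1 and at 2.90 to 6.11 in the other 5 APAP mice, within the control range of 2.47 to 9.68. After ConA 2 of 6 rose (16.8% of all genes were called higher). Of 14 activation genes, 5 of 9 tested rose after ConA, beside the same 16.8%, with the costimulatory receptor Tnfrsf9 at 42.1 ± 16 CPM against 0.193 ± 0.17 (7.74 ± 0.82, edgeR adjusted p = 0.000129), Ctla4 at 1.83 ± 1.1 against 0 and Tigit at 1.04 ± 0.55 against 0.0543 ± 0.077. After APAP 3 of 5 were called higher (17.3% of all genes) and after TAA 3 of 5 were (26.4%), with Tnfrsf9 at 3.71 ± 0.86 and 4.75 ± 0.60. Of the same 5, 1 was called lower after TAA, Icos (-1.56 ± 0.46, beside 24.0% of all genes). After ANIT 1 of 4 was called lower, Lag3 (-2.43 ± 0.54, beside 14.2% of all genes), and 0 higher. Tnfrsf9 was at 21.6 CPM in APAP mouse 1 and 0.147 to 4.89 in the other 5 APAP mice, and at 3.68 to 21.6 in the TAA mice, against 0 to 1.86 in the gavage controls. The chemokines Cxcl9 and Cxcl10, which draw activated T cells, rose by 7.48 and 7.86 on the log2 scale after ConA. Cxcl10 also rose after MDA (1.72) and TAA (2.62), and Cxcl9 fell by 2.91 after ANIT, by 1.49 after MDA and by 1.06 after GAL. Against all 17 vehicle mice Cxcl9 was not called after GAL. Both come from a list of 16 signals to T and NK cells. Of 9 tested, 5 were called higher and 1 lower after ConA, 4 and 2 after APAP, and 2 and 3 after MDA. After TAA 3 and 4 of 9 were, after ANIT 0 and 5 of 9, and after GAL 1 and 2 of 10. Of all genes 34.2%, 31.8%, 33.8%, 50.5%, 28.2% and 28.5% were called, in the same order. In APAP mouse 1 Cxcl10 was at 193 CPM and in the other 5 APAP mice at 2.32 to 8.77, against 2.62 to 24.0 in the gavage controls. Of 20 further T lineage genes, 4 of 11 tested rose after TAA (26.4% of all genes were called higher), led by Il7r (3.33 ± 0.81), Tcf7 (1.89 ± 0.21) and Cd2 (1.71 ± 0.50), and 1 fell (24.0% of all genes). After APAP 0 of 8 were called (31.8% of all genes), and after ConA Cd28 rose (3.92 ± 1.02, beside 16.8% of all genes). After ANIT Trbc1 fell by 3.19 and Tcf7 fell by 1.00 on the log2 scale. After CCl4 Tcf7 stood at 4.75 ± 0.58 CPM against 1.75 ± 0.071 in i.p. saline, Zap70 at 2.03 ± 0.61 against 5.06 ± 0.17 and Cd27 at 0.279 ± 0.18 against 1.1 ± 0.34. The GAL mice, set against the same saline mice, had Tcf7 at 4.72 ± 0.55, Zap70 at 1.47 ± 0.22 and Cd27 at 0.351 ± 0.11. Of 13 tested after GAL 1 was called higher and 2 lower (28.5% of all genes were called).

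**Figure D5:**
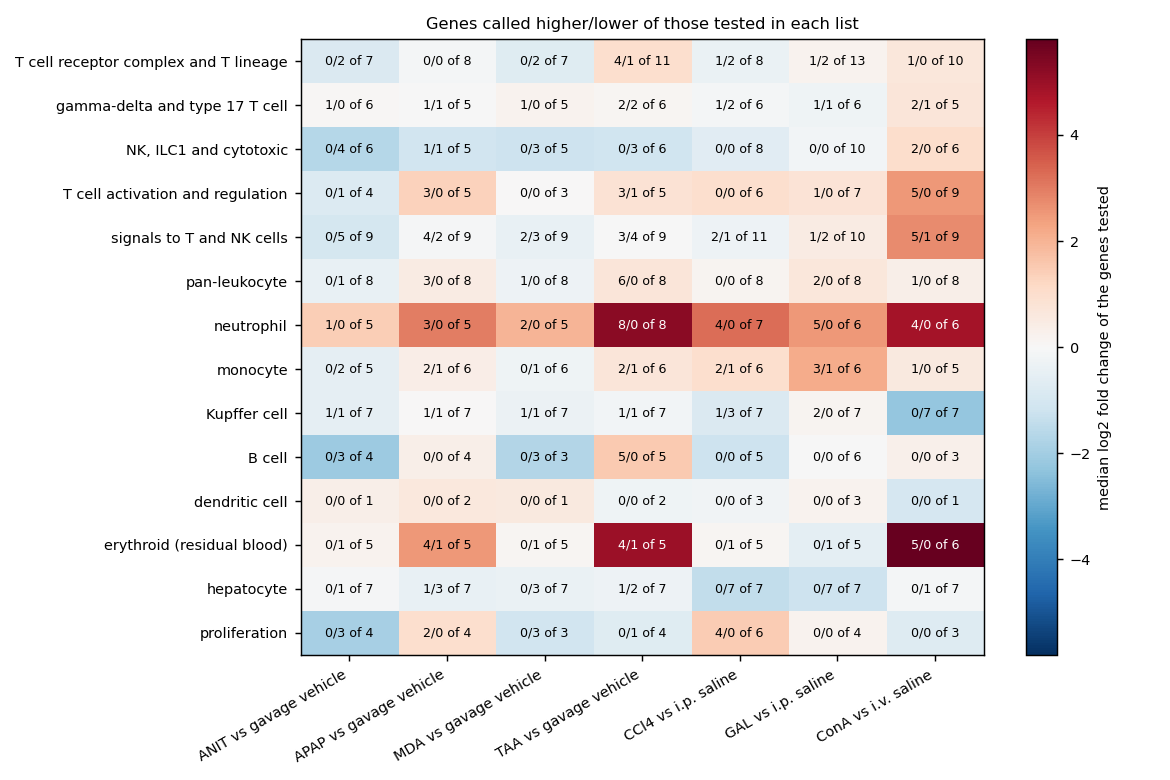
Median log2 fold change (colour) of the genes tested in 14 lists (rows) after each compound against its route vehicle (columns), with the numbers called higher and lower of those tested. The NK and cytotoxic row is lowest after ANIT, and neutrophil and erythroid genes are highest after TAA and ConA.

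Over the 57 mice, the 3 genes most like Trdc among 12371 with a mean of at least 1 CPM were Sh2d6 (Pearson r = 0.993 of log2(CPM + 1)), Aldh1l2 (r = 0.991), a mitochondrial folate enzyme, and Fam171b (r = 0.976). None is in the T or NK cell lists used here. All 3 reach that mean through the CCl4 mice, so r restates the CCl4 level that chose Trdc. Spearman's rho was 0.765, 0.434 and 0.441, and by rho Sfn, 9530034E10Rik and Pmm1 ranked first. Sh2d6 stood at 7.24 to 10.6 CPM in the CCl4 mice and at 0 in every vehicle mouse. In the CCl4 mice Aldh1l2 stood at 19.9 to 39.9 CPM and Fam171b at 10.7 to 18.0. After subtracting group means r was 0.451, 0.424 and 0.363. For Nkg7 the closest were Oas1g (r = 0.791), Gzma (r = 0.787) and Oas1a (r = 0.786), 2 interferon-induced synthetases and a granzyme, and with group means removed r was 0.641, 0.653 and 0.665. For Cd3e the highest r was 0.544, with Rpl28-ps1. The 36 pairs of members without Trdc had a median r of 0.32 (-0.09 to 0.67), and the 9 pairs with Trdc one of -0.08 (-0.23 to 0.03). The r of the 9 pairs again carries the CCl4 level that chose Trdc. With group means removed the medians were 0.21 (-0.16 to 0.71) and -0.10 (-0.21 to 0.01).

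Markers of other cells moved in the same libraries, and their part in the results was not tested. Erythroid genes, taken as markers of residual blood, summed to 2979 to 5344 CPM after TAA, 1309 to 6880 after ConA and 126 to 2355 after APAP, against 92.8 to 390 in all 17 vehicle mice. Of 5 tested, 4 were called higher and 1 lower after TAA (50.5% of all genes were called) and after APAP (31.8%). After ConA 5 of 6 were called higher and 0 lower (34.2%). The 8 neutrophil genes summed to 163 to 868 CPM after TAA and 129 to 291 after ConA, against 3.11 to 68.1 in vehicle mice. The 7 B cell genes summed to 1.28 to 3.57 CPM after ANIT and 0.845 to 2.96 after MDA, against 4.74 to 21.5, so they were low in the 2 groups with the lowest Nkg7, and to 12.7 to 27.3 after TAA. The 7 Kupffer cell genes summed after ConA to 68.9 to 129 CPM against 266 to 775. The 7 hepatocyte genes summed to 27047 to 37242 CPM after CCl4 and 38471 to 47460 after GAL, against 70710 to 142816.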

How the data were processed

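Whole-liver RNA of 57 mice was measured by stranded mRNA sequencing, single-end, per the labels' protocols. The authors deposited 1 table of estimated counts for 54307 genes. Salmon 1.6.0, R 4.1.3 and the build GRCm39 are named in the submitters' processing notes without a role; the annotation release and strand setting are not given in the sources used here. Symbols were matched for 51482 of the Ensembl identifiers and not for 2825. Because GENCODE M21 and RefSeq sequences are on GRCm38, they served for sequence only.

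Counts were rounded for tests. Each compound was compared with its route vehicle by edgeR 4.0.16 (R 4.3.3; TMM, filterByExpr, quasi-likelihood, two-sided, Benjamini-Hochberg over all genes tested, called under 0.05) on the 2 groups alone, and with all 17 vehicle mice. ANIT, APAP, MDA and TAA share the 13 gavage controls, and CCl4 and GAL share 2 saline mice. SE is the log2 fold change over the square root of F. Each sample is taken as 1 mouse, and p-values measure the spread between these samples. The scripts were tested on simulated data. Alternatives were DESeq2 1.42.0, library totals, no filter, all 57 samples in 1 fit, leaving out each mouse, and replicate numbers. The members and the 14 lists were chosen with earlier results of these data known. Genes outside the members are named as the up to 3 called with the largest change per list and comparison, the 3 most like Trdc, Cd3e and Nkg7, and expressed receptor locus rows; the 3 genes highest by Spearman's rho were added after their values were seen. The number of sequenced reads limits the precision, but the reads behind a value cannot be read from the deposited scale. One receptor sequence is not reported here.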

Additional observations from a re-analysis of the deposited data

Results flagged for a closer look

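In 5 of 70 groups of 4 to 7 mice, 1 mouse stood apart from the rest of its group by Dixon's gap ratio, which chance alone gives in about 1 of 20 groups. For Cd4 these were ANIT mouse 4 at 1.03 CPM (next highest 0.272), APAP mouse 4 at 1.14 CPM (next 0.445) and ConA mouse 3 at 2.05 CPM (next 0.275). Trac was lowest in GAL mouse 4 at 1.16 CPM (next 1.96), and Trdc was highest in ANIT mouse 1 at 0.277 CPM (next 0.0351).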

How the results depend on the processing

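Counts of members called are given where an alternative moved them; those for CCl4 describe the contrast that chose Trdc. With all 17 vehicle mice as controls they were 1 for APAP, 6 for MDA, 2 for CCl4 and 1 for GAL. With DESeq2 they were 1 for APAP, 7 for MDA (Trdc higher), 2 for TAA and 2 for ConA. Without the filter they were 1 for ANIT, 1 for APAP, 4 for MDA (Gzmb lost, Trdc higher) and 2 for TAA. With library totals GAL had 2 and MDA 2 (Gzmb lost, edgeR adjusted p = 0.0631). With all 57 samples in 1 fit they were 1 for APAP, 6 for MDA, 3 for TAA and 0 for ConA; there Trdc passed the filter through the CCl4 mice and is among the first 3 counts. With the number range as a term they were 0 for ANIT, 1 for APAP and 2 for MDA. Restricting to numbers above 4 gave 1 for APAP, 2 for MDA, 2 for TAA and 2 for ConA. Restricting to numbers 1 to 4 gave 0 for ANIT, 1 for MDA and 0 for TAA. With the replicate block they were 0 for ANIT, 1 for MDA and 0 for TAA. Whether the numbers pair the mice is not known. No comparison with 3 or more same-numbered pairs had every correlation over 0.1 (TAA 0.277, 0.114, 0.154 and 0.00773), a cut that cannot exclude pairing. CCl4 and ConA share too few numbers for a block. Leaving out 1 mouse gave 1 to 2 for ANIT, 0 to 1 for APAP, 2 to 3 for MDA, 0 to 1 for TAA, 1 to 2 for CCl4, 0 to 0 for GAL and 1 to 2 for ConA. The cause was not tested. No log2 fold change of a called member reversed. Library totals moved the calls over all genes from 1965 higher and 2002 lower to 822 and 2651 for ANIT, from 2407 and 2029 to 2937 and 1113 for APAP, from 2759 and 2393 to 4565 and 1100 for CCl4, from 1981 and 2435 to 5515 and 844 for GAL, and from 2381 and 2446 to 1101 and 3752 for ConA. The median of all genes then stood at -0.23, 0.22, 0.53, 0.84 and -0.56. The share of all genes called differed between these settings: 28.2% to 50.5% over the 7 comparisons as reported, 28.0% to 68.0% against all 17 vehicle mice, 17.9% to 30.96% with DESeq2, 12.3% to 33.2% without the filter, 24.7% to 44.9% with library totals, 17.9% to 41.1% with all 57 samples, 9.49% to 50.9% with 1 mouse left out and, where they could be fitted, 19.1% to 52.3% with the number range as a term, 20.2% to 47.4% above number 4, 6.28% to 19.4% for numbers 1 to 4 and 1.65% to 33.9% with the replicate block. The reads behind each value are unknown, so a limit from depth cannot be given per member.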
